A study of Mus musculus with 201 samples.

Results

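Prostaglandin signalling in mouse dentate granule cells (DGCs) was followed through 8 genes: the cyclooxygenases *Ptgs1* and *Ptgs2*, the synthase *Ptges*, the prostaglandin E2 receptors *Ptger1*, *Ptger2*, *Ptger3* and *Ptger4*, and the dehydrogenase *Hpgd*. The genes were taken by name, and the list was drawn up with the high level of *Ptgs2* in FOS+ nuclei already known, so that its difference between FOS+ and FOS- nuclei is described here and not tested. All 8 genes are listed in each deposited table, out of 42802 symbols for nuclei of a mouse put in an unfamiliar environment (NE), 42774 for home cage (HC) nuclei and 42790 for whole cells.

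The study sequenced RNA from single DGCs to compare neurons that had or had not been activated. Whole cells came from Prox1-GFP mice, in which a GFP reporter under the *Prox1* promoter marks DGCs. These mice received pentylenetetrazole (PTZ, 50 mg/kg), which blocks GABA(A) receptors and provokes seizures, or saline, and 1 h later cells were freed with a protease and sorted on GFP. Nuclei came from C57BL/6 mice by Dounce homogenization. NE nuclei came from a mouse that spent 15 min in the unfamiliar environment and 1 h back in its cage. They were sorted as Prox1+/Fos+ or Prox1+/Fos-, here FOS+ and FOS-. HC nuclei, from a mouse left in its cage, were NeuN+/Prox1+, and the methods describe scoring these stains in images after capture. The wild-type mice were females 8 weeks old, and the age of the Prox1-GFP mice was not given in the sources used here. According to the methods, whole cells were pooled from 2 mice per treatment, and HC nuclei were amplified on another platform (C1) than all other samples (Smart-seq2). No label ties a cell to an animal, so each group is 1 sample and no test was made over cells. The titles of all 47 saline-treated cells carry the mark frz and those of the 35 PTZ-treated cells do not, and what the mark stands for is not given in the sources used here, so it and the treatment cannot be told apart.

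After the filters, 40 of 48 FOS+ nuclei, 41 of 48 FOS- nuclei, 23 of 23 HC nuclei, 30 of 35 PTZ-treated cells and 38 of 47 saline-treated cells remained. Total counts ran from 63775 to 1060516 in NE nuclei, from 107647 to 278779 in HC nuclei and from 67212 to 5129240 in whole cells. At least 1 of 6 granule cell and neuron markers was detected in each cell and nucleus that remained. This does not decide the DGC label, since a single marker was enough for it. *Calb1* alone was detected in all 40 FOS+ and all 41 FOS- nuclei, and *Snap25* in all 23 HC nuclei. *Prox1*, the transcription factor that marks DGCs, was detected in 100% of the whole cells of both treatments, in 82.5% of FOS+ nuclei, in 82.9% of FOS- nuclei and in 60.9% of HC nuclei. A gene was counted as detected in a cell if it had a TPM above 1, TPM being the authors' level scaled for gene length and for the cell's total. The summed level of a gene in a group is given as CPM, the sum of its expected counts over the sum of all counts, which is not scaled for length. Summed within 1 cell, astrocyte markers reached 8049 CPM in a PTZ-treated cell (group median 0). Interneuron markers reached 6215 CPM in an HC nucleus (group median 11.6), and both were kept. Intervals are exact 95% intervals for counts and shares and cover counting error only. Those for counts take each read as a separate count. The reads carry no molecular identifiers to set apart copies of 1 molecule, so these intervals can be too narrow. For a gene with no count in a group, the share that this allows is given as 3 cells of the group, with the upper end of the exact interval beside it, and both limit the share of cells with a detected count, not the share that holds the transcript.

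Prostaglandins are lipid signals made from arachidonate, a fatty acid released from membranes. Cyclooxygenases turn arachidonate into prostaglandin H2, and terminal synthases such as PTGES turn this into prostaglandin E2, which acts on the 4 EP receptors encoded by *Ptger1* to *Ptger4*, while HPGD starts its breakdown. *Ptgs2*, which encodes the inducible cyclooxygenase COX-2, is known in forebrain excitatory neurons as a gene that synaptic activity switches on, and *Ptgs1* encodes COX-1, which is more evenly produced and in brain is known from microglia.

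*Ptgs2* lies on the forward strand of chromosome 1 (GRCm38, chr1:150100031-150108227), with 10 exons in its longest transcript. The noncoding gene *Ptgs2os* runs the other way from a start only 67 bases upstream (chr1:150074873-150099963, reverse strand), and the genes do not overlap. The bases before *Ptgs2* are shown because this short stretch separates the starts of both genes, whose values follow below. The first sequence holds the 250 bases before the annotated start of *Ptgs2* (RefSeq promoter table, GRCm38.p6, forward strand, chr1:150099781-150100030), with the 67 bases between the starts in capitals, and the second holds the first 30 bases from the start (chr1:150100031-150100060).

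Ptgs2 before the start: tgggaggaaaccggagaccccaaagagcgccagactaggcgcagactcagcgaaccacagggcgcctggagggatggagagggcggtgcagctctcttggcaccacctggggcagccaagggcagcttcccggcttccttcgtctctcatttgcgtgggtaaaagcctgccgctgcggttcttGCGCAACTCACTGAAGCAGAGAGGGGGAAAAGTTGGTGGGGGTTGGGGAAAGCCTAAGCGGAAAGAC
Ptgs2 from the start: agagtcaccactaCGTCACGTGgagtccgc

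In the second sequence, capitals mark a short CRE site, the letters TGACG read on the other strand from base 14 to 18 after the start, and an E-box, the letters CACGTG from base 17 to 22, which share 2 bases. Both strands were searched for 7 motifs: the full CRE TGACGTCA, the short CRE TGACG, the E-box CACGTG, AP-1 TGANTCA, the TATA box TATAAA and the NF-kB and CArG boxes by name. None of the 7 motifs was found in the 250 bases before the annotated start of *Ptgs2* or of the other 6 genes with an entry in the table, in which *Ptger1* is missing. The search from the start to 50 bases after it was added after the data were examined. Of 32851 windows of the same length, counted from 250 bases before to 50 after the start, 20.8% hold the short CRE and 7.15% the E-box. Neither match alone is thus rare, and how often both overlap in a window was not counted.

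*Ptgs2* was detected in 24 of 40 FOS+ nuclei (60%, interval 43.3 to 75.1%). Its level over all 40 FOS+ nuclei had a median of 35.2 TPM and ran from 0 to 1997 TPM, and 16 nuclei stood at or below 1 TPM. Among the 24 nuclei that detected it, 3 lay between 1 and 10 TPM, 5 between 10 and 100, 14 between 100 and 1000 and 2 above 1000. The highest were FOS+ nuclei 12, 3 and 41 (numbered in the order of deposition), at 1997, 1219 and 915 TPM. By counts the order differed, with 288.94 of 243453 in nucleus 12, 864.34 of 272563 in nucleus 3 and 762.38 of 328615 in nucleus 41. A single count gave 9.15 TPM in nucleus 10 and 1.27 TPM in nucleus 31. By TPM, FOS+ nuclei therefore held *Ptgs2* at levels spread over 3 orders of magnitude beside nuclei without it. The 3 nuclei between 1 and 10 TPM held only 1 or 2 counts each. No single nucleus carried more than 14.3% of the 6056 counts of *Ptgs2*.

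In FOS- nuclei *Ptgs2* was detected in 2 of 41 (4.88%, interval 0.596 to 16.5%), at 2.39 and 1.63 TPM, and 1 more nucleus had it below the limit. Each of the 3 held 1 count, and all other FOS- nuclei held none. The groups overlapped only because of those low nuclei and the FOS+ nuclei at or near 0, as 21 FOS+ nuclei and 0 of 41 FOS- nuclei had at least 5 counts. Summed over nuclei, *Ptgs2* stood at 419 CPM in FOS+ nuclei (interval 408 to 430) and at 0.215 CPM in FOS- nuclei, a ratio of 1950 with a counting interval from 667 to 9456. It ranked number 3 by this ratio and number 13 by the difference in share among 16387 genes detected in at least 5 nuclei. In that comparison 7.98% of genes were at least 4 times higher in FOS+ nuclei by CPM, and 4.3% were detected in a share at least 20 points higher. Of the 8 genes, 4 met the limit of 5 nuclei (*Ptgs1*, *Ptgs2*, *Ptges* and *Ptger1*), of which *Ptgs1* and *Ptgs2* were at least 4 times higher and *Ptger1* at least 4 times lower, where 13.8% of all genes were lower. Without FOS+ nucleus 30 the *Ptgs1* ratio was 2.73, and without the FOS- nucleus with most *Ptger1* counts that of *Ptger1* was 0.298, so that neither then passed 4 times. *Ptgs2* was chosen from this contrast, and nothing is read from its place in it. Of the markers of other cell types, at least 1 of the 3 interneuron markers (*Gad1*, *Gad2* and *Slc32a1*) was detected in 27 of 40 FOS+ and 17 of 41 FOS- nuclei. Their summed level ran from 0 to 2360 CPM (median 16.01) and from 0 to 815 CPM (median 0.742), *Slc32a1* was not detected in FOS+ nuclei, and the part of these markers in the difference was not tested.

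**Figure D1:**
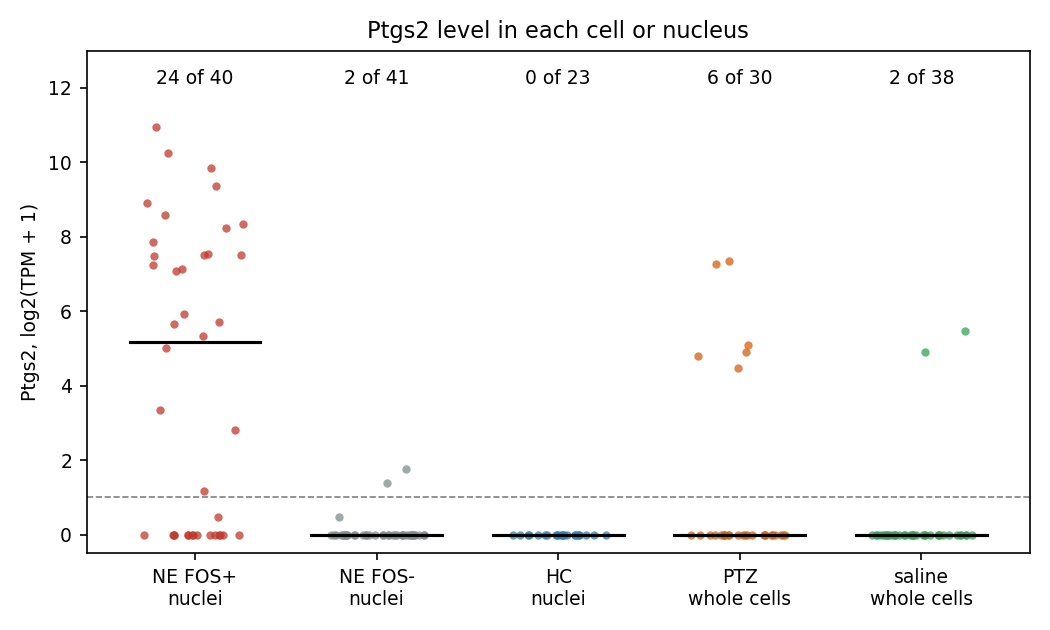
Level of *Ptgs2* in each cell or nucleus, as log2(TPM + 1) on the vertical axis, for the 5 groups. Each point is a cell or nucleus, black bars are medians, the dashed line marks 1 TPM, and the number of cells detecting the gene is written over each group. Only FOS+ nuclei have a median above 0, and the 2 FOS- nuclei above the line sit below 23 of the 24 FOS+ nuclei above it.

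NE nuclei were amplified under 4 conditions, 2 concentrations of template-switching oligonucleotide (TSO, 1 or 10 µM) crossed with 2 dilutions of spike-in RNA (ERCC, 1:200 or 1:2000), with both sorts in each. *Ptgs2* was detected in 7 of 10 FOS+ nuclei at 1 µM and 1:200, in 5 of 8 at 1 µM and 1:2000, in 4 of 11 at 10 µM and 1:200 and in 8 of 11 at 10 µM and 1:2000. Its summed level was lowest at 10 µM and 1:200, at 83 CPM, against 618, 356 and 492 CPM in the order of the other conditions. FOS- nuclei had no count of *Ptgs2* in the first 3 conditions, where 3 counts over the group set the ratio at no less than 361, 775 and 31.6. All 3 FOS- counts fell at 10 µM and 1:2000, the condition in which FOS+ nuclei held 2471 counts, and there the ratio was 746 (interval 255 to 3618). The direction was the same in each condition.

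**Figure D2:**
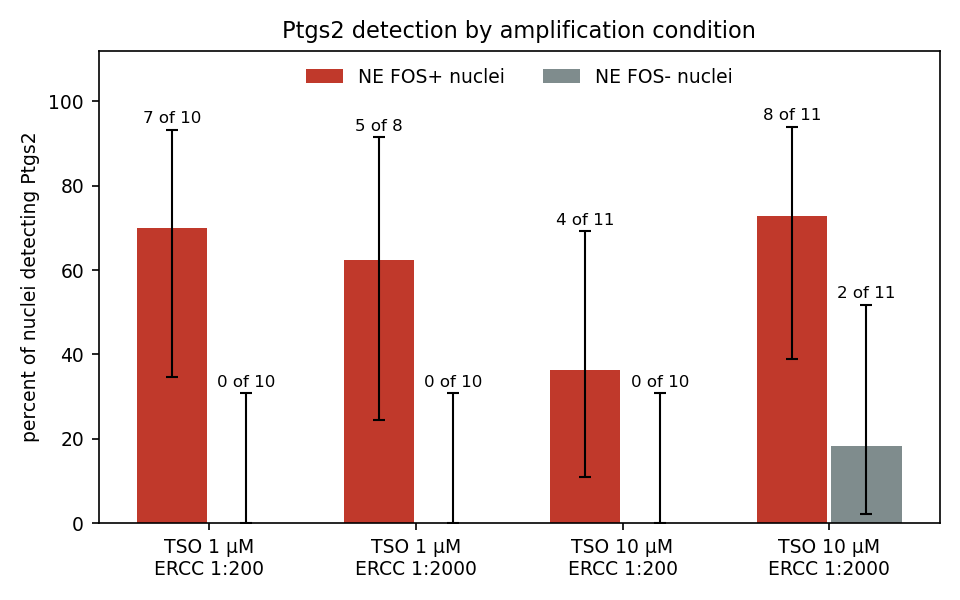
Percent of nuclei detecting *Ptgs2* (vertical axis) in each of the 4 amplification conditions (horizontal axis), for FOS+ (red) and FOS- (grey) nuclei. Bars are shares, error bars exact 95% binomial intervals, and each bar carries its number of nuclei. The FOS+ bar is the taller in each condition, from 4 of 11 to 8 of 11 nuclei.

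In HC nuclei *Ptgs2* had no count in any of 23 nuclei, which allows a share of up to 13.04% (exact upper limit 14.8%). These nuclei were shallower, with a median of 3213 genes against 6325 in FOS+ nuclei, and came from another platform, so the values stand side by side without a comparison. *Arc*, *Fos* and *Egr1*, immediate early genes (IEGs) that neuronal activity induces, were detected in 1, 0 and 1 of the 23. Thinning each NE nucleus to 50000 counts left an expected share with *Ptgs2* of 54.9% in FOS+ and 1.43% in FOS- nuclei.

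Within FOS+ nuclei, detection of *Ptgs2* lay inside that of *Arc*, which encodes a synaptic regulator of AMPA receptors. All 24 FOS+ nuclei that detected *Ptgs2* were among the 31 that detected *Arc*, and 0 of the 9 nuclei without *Arc* detected it. *Arc* was detected in 10 of 10 FOS+ nuclei at 1 µM and 1:200 and in 7 of 8 at 1 µM and 1:2000. At 10 µM it was detected in 5 of 11 at 1:200 and in 9 of 11 at 1:2000. The nuclei without *Arc* thus lay mostly at 10 µM and 1:200, where *Ptgs2* was also lowest. The part of the amplification condition in the overlap was not tested. *Ptgs2* was detected in 10 of 12 FOS+ nuclei with *Fos* mRNA and in 14 of 28 without it, and in 10 of 13 with *Egr1* and 14 of 27 without. FOS protein, not *Fos* mRNA, was the basis of the sort, and 28 of the 40 FOS+ nuclei had no detectable *Fos* mRNA. The 7 nuclei with *Arc* but no *Ptgs2* did not stand lower in *Arc*, with a median of 580 TPM against 582 TPM in the 24 with both. Of the 5 oligodendrocyte markers, at least 2 were detected in 19 of the 24 FOS+ nuclei with *Ptgs2* and in 6 of the 16 without it. Their summed level ran from 3.38 to 1377 CPM (median 33.98) in the 24 and from 0 to 506 CPM (median 7.70) in the 16, *Mog* and *Olig2* were not detected in either, and the part of these markers in the share with *Ptgs2* was not tested. Depth was similar in the nuclei with *Arc*, since the median total was 277748 counts in the 7 and 278278 in the 24.

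Over the 81 NE nuclei, the Pearson correlation of log2(TPM + 1) between *Ptgs2* and *Arc* was 0.80 (Spearman 0.75), the highest of 13213 genes detected in at least 10 nuclei. Next were *Vgf* (0.74), a secreted neuropeptide precursor, *Pim1* (0.73), a kinase, *Lingo1* (0.72), *Nr4a2* (0.71), an inducible nuclear receptor, *Spry2* (0.70), *1700016P03Rik* (0.70), *Med14* (0.70), *Grk6* (0.69) and *Nptx2* (0.69), a secreted synaptic pentraxin. *Fos* was number 86 with 0.48 and *Egr1* number 284 with 0.35. These are descriptions over nuclei of 1 preparation, in which all genes share library preparation, amplification condition, depth and the division into FOS+ and FOS-. Within the 40 FOS+ nuclei alone the highest were *Grk6* (0.72), *Med14* (0.68), *Arc* (0.67), *Dot1l* (0.66), *Per1* (0.65), *C130089K02Rik* (0.63), *Homer1* (0.62), *Lingo1* (0.61), *Spry2* (0.61) and *1810030O07Rik* (0.61), with *Fos* at 0.36. Among the 24 nuclei with both genes, *Ptgs2* and *Arc* had a Pearson correlation of 0.73 and a Spearman correlation of 0.43, and 2 of the 24 had both genes low.

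**Figure D3:**
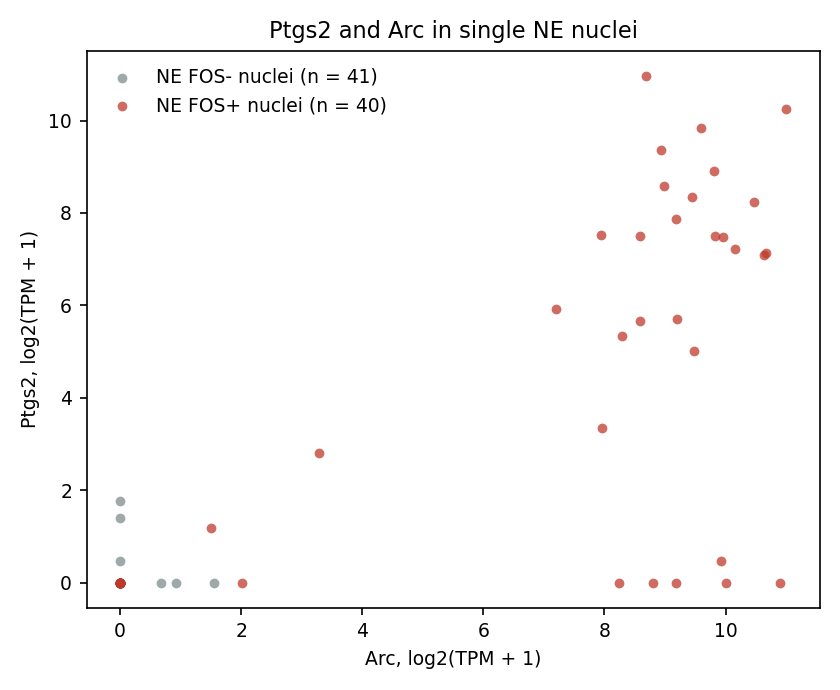
Level of *Ptgs2* (vertical axis) against *Arc* (horizontal axis), both as log2(TPM + 1), in 40 FOS+ (red) and 41 FOS- (grey) nuclei, 1 point per nucleus. Nuclei with *Ptgs2* but no *Arc* are absent among FOS+ nuclei, whereas 7 FOS+ nuclei show *Arc* above 1 TPM and no detected *Ptgs2*.

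*Ptgs2os* was detected in 6 of 40 FOS+ nuclei (15%, interval 5.71 to 29.8%), all 6 among the nuclei that detected *Ptgs2*, and in 2 of 41 FOS- nuclei, neither of which did. The 6 values ran from 32.8 to 533 TPM and the 2 FOS- values were 109 and 20.9 TPM, so the levels overlapped. Its sum was 744 counts in FOS+ and 24 in FOS- nuclei, a ratio of 29.95 (interval 19.96 to 47.03), and FOS+ nucleus 26 held 58.6% of the FOS+ counts. At 10 µM and 1:200 its ratio turned to 0.397 (interval 0.161 to 0.931), on 10 against 16 counts in 1 nucleus each. The transcripts of *Ptgs2* and *Ptgs2os* have no stretch of 50 bases in common with each other or with another gene. *Ptgs2os2*, which lies 50815 bases beyond *Ptgs2*, was detected in 14 of 40 FOS+ and 19 of 41 FOS- nuclei with at most 10.04 counts in a nucleus. Neither noncoding gene had a count in HC nuclei or whole cells.

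The whole cells have tables of their own and are not compared with the nuclei. *Ptgs2*, which was not chosen from this contrast, was found above the limit in 6 of 30 cells given PTZ (20%, interval 7.71 to 38.6%), at 161, 155, 33.1, 28.95, 26.6 and 21.1 TPM, and had no count in the other 24. In saline-treated cells it was detected in 2 of 38 (5.26%, interval 0.644 to 17.7%), at 43.1 and 29.1 TPM. The intervals of the shares overlap, and both saline values fall inside the PTZ range, while 2 PTZ-treated cells lie above them. Summed, *Ptgs2* stood at 46.98 CPM in PTZ-treated and 6.81 CPM in saline-treated cells, a ratio of 6.90 (interval 6.08 to 7.84). In this comparison 4.68% of 13748 genes were at least 4 times higher with PTZ, and *Ptgs2* alone of the 8 met the limit of 5 cells. The limit counts cells of both treatments together, and *Ptgs2* met it only through its 6 PTZ-treated cells. Nothing is therefore read from its place beside that share. PTZ-treated cell 11 held 46.03% of the PTZ counts, and without the cell with the highest CPM the ratio was 3.92, below 4. A single saline-treated cell held 72.4% of the saline counts, and without it alone the ratio was 23.8.

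In whole cells the IEGs were detected far more widely than *Ptgs2*. All 6 PTZ-treated cells with *Ptgs2* detected *Fos*, but so did 20 of the other 24. *Fos*, *Arc* and *Egr1* were all detected in 10 PTZ-treated cells, of which 4 had *Ptgs2*, and in 16 saline-treated cells, of which 1 had it. *Fos* was thus detected in 86.7% of PTZ-treated and 78.9% of saline-treated cells and *Arc* in 46.7% and 44.7%, where *Ptgs2* was detected in 20% and 5.26%. The PTZ-treated cells with *Ptgs2* were also deeper, with a median total of 1630556 counts against 1070429 in the others, and the part of depth in this was not tested beyond thinning to 50000 counts, which left expected shares of 19.7% with PTZ and 5.17% with saline.

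*Ptgs1* (chr2:36230426-36252272, forward strand) was detected in 5 of 40 FOS+ and 3 of 41 FOS- nuclei and had no count in HC nuclei or whole cells. Its values were 2103, 5.91, 5.44, 3.58 and 2.08 TPM in FOS+ and 8.24, 1.73 and 1.68 TPM in FOS- nuclei, so that the groups overlapped except for 1 nucleus. The ratio of sums was 58.8 (interval 26.8 to 162), but FOS+ nucleus 30 held 349 of the 366 counts. Without it the ratio was 2.73 (interval 1.04 to 8.54), on 17 against 6 counts.

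FOS+ nucleus 30 stood apart in its microglia markers. The 7 microglia markers summed to 6333 CPM in it, against at most 429 CPM in the other FOS+ nuclei and 139 CPM in FOS- nuclei. It held *P2ry12* at 2980 TPM, *C1qb* at 869, *Csf1r* at 425 and *Cx3cr1* at 30.7 TPM, while *C1qa*, *C1qc* and *Tmem119* were at 0. *Prox1*, *Rbfox3* and *C1ql2* were at 0, whereas *Calb1*, *Dock10* and *Snap25* were detected, 3 of 6 granule cell markers, as in 2 other FOS+ nuclei, against a median of 5. It also held 86.5% of the FOS+ counts of *Hpgds*, a prostaglandin D synthase, and 2 counts each of *Ptgs2* and *Arc*. The part of these markers in the *Ptgs1* counts was not tested. *Ptgs2* was detected in 23 of 39 FOS+ nuclei without it, and its ratio was 1963.

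*Ptges* (chr2:30889471-30929863, reverse strand), the inducible synthase of prostaglandin E2, was the only one of the 8 besides *Ptgs2* detected in more than 5 nuclei of a group. It was detected in 15 of 40 FOS+ nuclei (37.5%, interval 22.7 to 54.2%) and in 14 of 41 FOS- nuclei (34.1%, interval 20.1 to 50.6%), at no more than 16.2 and 7.33 TPM. The sums were 44 and 45 counts, a ratio of 0.928 (interval 0.609 to 1.46). Within amplification conditions the ratio ran from 0.317 (interval 0.140 to 0.686) at 10 µM and 1:2000 to 2.97 (interval 0.677 to 29.8) at 10 µM and 1:200. No direction is thus given for *Ptges*. *Ptges* and *Ptgs2* were detected together in 10 nuclei, and their levels had a correlation of 0.01 over the 81 nuclei. Whole cells and HC nuclei had no count of it, with limits of 10% of PTZ-treated and 7.89% of saline-treated cells (exact upper limits 11.6 and 9.25%).

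**Figure D4:**
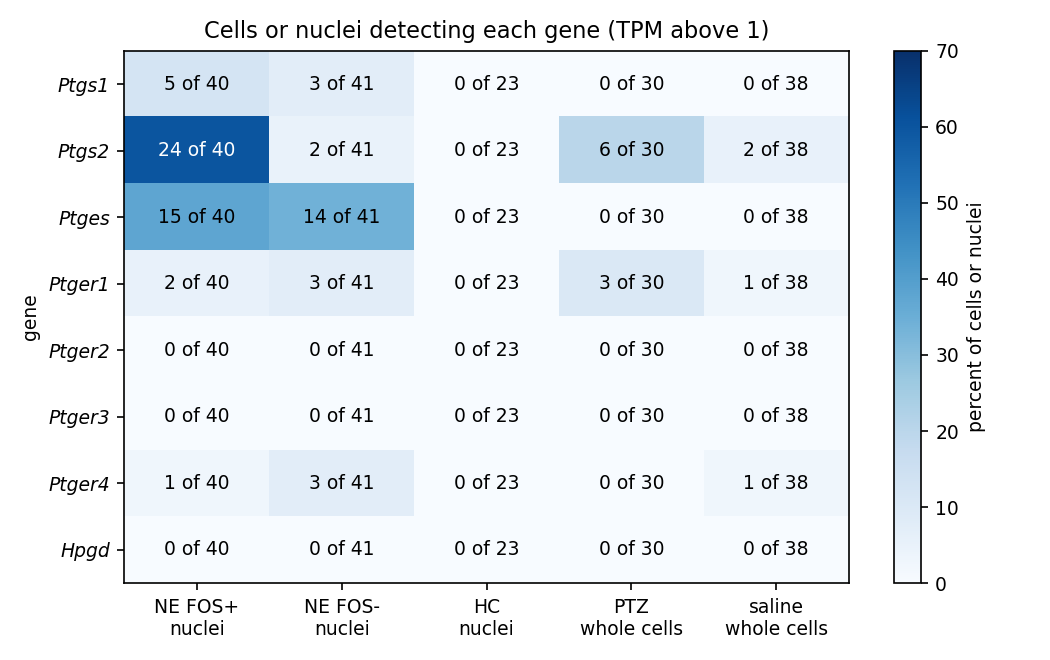
Number of cells or nuclei that detected each of the 8 genes (vertical axis) in the 5 groups (horizontal axis), with TPM above 1 as the limit and the colour showing the percent. *Ptgs2* in FOS+ nuclei, at 24 of 40, and *Ptges* in both NE groups are the highest shares, and *Ptger2*, *Ptger3* and *Hpgd* were detected nowhere.

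The EP receptors were detected in few cells. *Ptger1* (chr8:83666678-83672753, forward strand), a receptor that couples to calcium release, was detected in 2 FOS+ nuclei at 5.86 and 3.46 TPM and in 3 FOS- nuclei at 37.97, 31.2 and 19.7 TPM. Its sums were 15 against 97 counts, a ratio of 0.149 (interval 0.0805 to 0.259), where 13.8% of genes were at least 4 times lower in FOS+ nuclei. Without the FOS- nucleus with most of its counts the ratio was 0.298 (interval 0.154 to 0.543). In whole cells it was detected in 3 PTZ-treated cells at 44.2, 30.9 and 8.55 TPM and in 1 saline-treated cell at 21.4 TPM, and the ratio was 3.71 with the highest cell and 1.28 without it. These counts are uncertain, as reads assigned to *Ptger1* can fit more than 1 gene.

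*Ptger4* (chr15:5206661-5244187, reverse strand), which raises cyclic AMP, was detected in 1 FOS+ nucleus at 244 TPM and in 3 FOS- nuclei at 115, 96.8 and 13.02 TPM. The ratio of sums was 0.523 (interval 0.417 to 0.652), and within amplification conditions and other settings it ran from 0.0119 to 62.4, so no direction is given. In whole cells it was detected in 1 saline-treated cell at 67.6 TPM, with 2 counts in PTZ-treated cells. *Ptger2*, which also raises cyclic AMP, had 6 counts in 1 PTZ-treated cell, at 0.97 TPM, and none elsewhere. *Ptger3*, which lowers cyclic AMP, and *Hpgd* had no count in any group, which allows shares of up to 7.5% of FOS+, 7.32% of FOS-, 13.04% of HC nuclei, 10% of PTZ-treated and 7.89% of saline-treated cells. The exact upper limits are 8.81, 8.60, 14.8, 11.6 and 9.25% in the same order. Of the 81 NE nuclei 8 detected an EP receptor, and 1 of these also detected *Ptgs2*, and of the 68 whole cells 5 did, again 1 with *Ptgs2*.

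The rest of the pathway was read from 34 genes. Of these, 23 were detected in at least 5 NE nuclei, 1 of which (4.35%) was at least 4 times higher and 2 (8.70%) at least 4 times lower in FOS+ nuclei, where 7.98% and 13.8% of all genes were, with a median ratio of 0.873 against 0.866 over all 16387 genes. The higher gene was *Ptgds*, a prostaglandin D synthase (17.2 times, in 4 against 1 nuclei, with 57.9% of the FOS+ counts in 1 nucleus, and 7.28 without it). The lower ones were *Fam213b*, a prostaglandin F synthase (0.112, in 2 against 3 nuclei), and *Zadh2*, a prostaglandin reductase (0.0408, in 1 against 8). A single FOS- nucleus held 94.2% of the FOS- counts of *Fam213b*, and without it the direction turned, to a ratio of 1.90 on 12 against 6 counts, while *Zadh2* stayed lower without its highest nucleus, at 0.0672. In whole cells 19 genes were detected in at least 5 cells, with a median ratio of 0.879 against 0.975 over all genes, and 1 of them (5.26%) was at least 4 times higher with PTZ and 2 (10.5%) at least 4 times lower, where 4.68% and 4.09% of all genes were. *Pla2g4b*, a phospholipase A2, was 6.69 times higher with PTZ by CPM, but was detected in 4 of 30 against 6 of 38 cells, and a single cell held 49.6% of its PTZ counts, without which the ratio was 3.50. *Hpgds* (0.117, in 1 against 4 cells) had 87.2% of its saline counts in 1 cell, without which the ratio was 0.881. *Pla2g4e*, another phospholipase A2, stayed lower without its highest cell, at 0.151 against 0.163, and was detected in 9 of 30 against 17 of 38 cells. By share, *Dagla*, a synthase of 2-arachidonoylglycerol, was the only gene of the list that differed by 20 points in NE nuclei, 23.5 points lower in FOS+ nuclei where 3.7% of all genes were, and *Fam213b* the only one in whole cells, 21.2 points lower with PTZ where 4.59% were. None was 20 points higher with PTZ, against 3.29% of all genes.

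Several pathway genes were detected in most NE nuclei without such a difference. *Tbxas1*, the thromboxane synthase, was detected in 38 of 40 FOS+ and 39 of 41 FOS- nuclei with a ratio of 1.99, and 1.08 without the FOS+ nucleus that held 47.8% of its FOS+ counts, and was detected in no whole cell. *Ptgr2* and *Ptgr1*, reductases that inactivate prostaglandin metabolites, were detected in 32 and 26 FOS+ nuclei and in 34 and 26 FOS- nuclei. Their counts were few, at 197 and 124 summed over all FOS+ nuclei. In the same order they were detected in 6 and 9 of 30 PTZ-treated cells, 10 and 10 of 38 saline-treated cells and 2 and 1 of 23 HC nuclei. *Slco2a1*, the prostaglandin transporter, was detected in 30 of 40 and 32 of 41, and *Ptgfr*, the prostaglandin F receptor, in 22 of 40 and 25 of 41. *Ptgfr* had 101 counts over all FOS+ nuclei. It was detected in 1 of 30 PTZ-treated cells, 0 of 38 saline-treated cells and 1 of 23 HC nuclei. For *Slco2a1* these numbers were 11, 7 and 15. *Akr1b3*, an aldose reductase, *Ptges2*, another prostaglandin E synthase, and *Pla2g4b* were also detected in at least 50% of the nuclei of a group. *Ptges3*, the cytosolic prostaglandin E synthase, was 3.06 times higher in FOS+ nuclei by CPM, in 17 of 40 against 12 of 41 nuclei, and 1.02 times with PTZ. Its FOS+ to FOS- ratio was 2.17 without the FOS+ nucleus with most counts and 6.32 without the FOS- nucleus with most. *Hpgds* had a ratio of 1.30 in NE nuclei and 0.177 (interval 0.134 to 0.229) without FOS+ nucleus 30. The highest FOS- nucleus held 67.6% of its FOS- counts, and the ratio was 3.77 without that nucleus alone and 0.514 without both, so no direction is given.

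**Figure D5:**
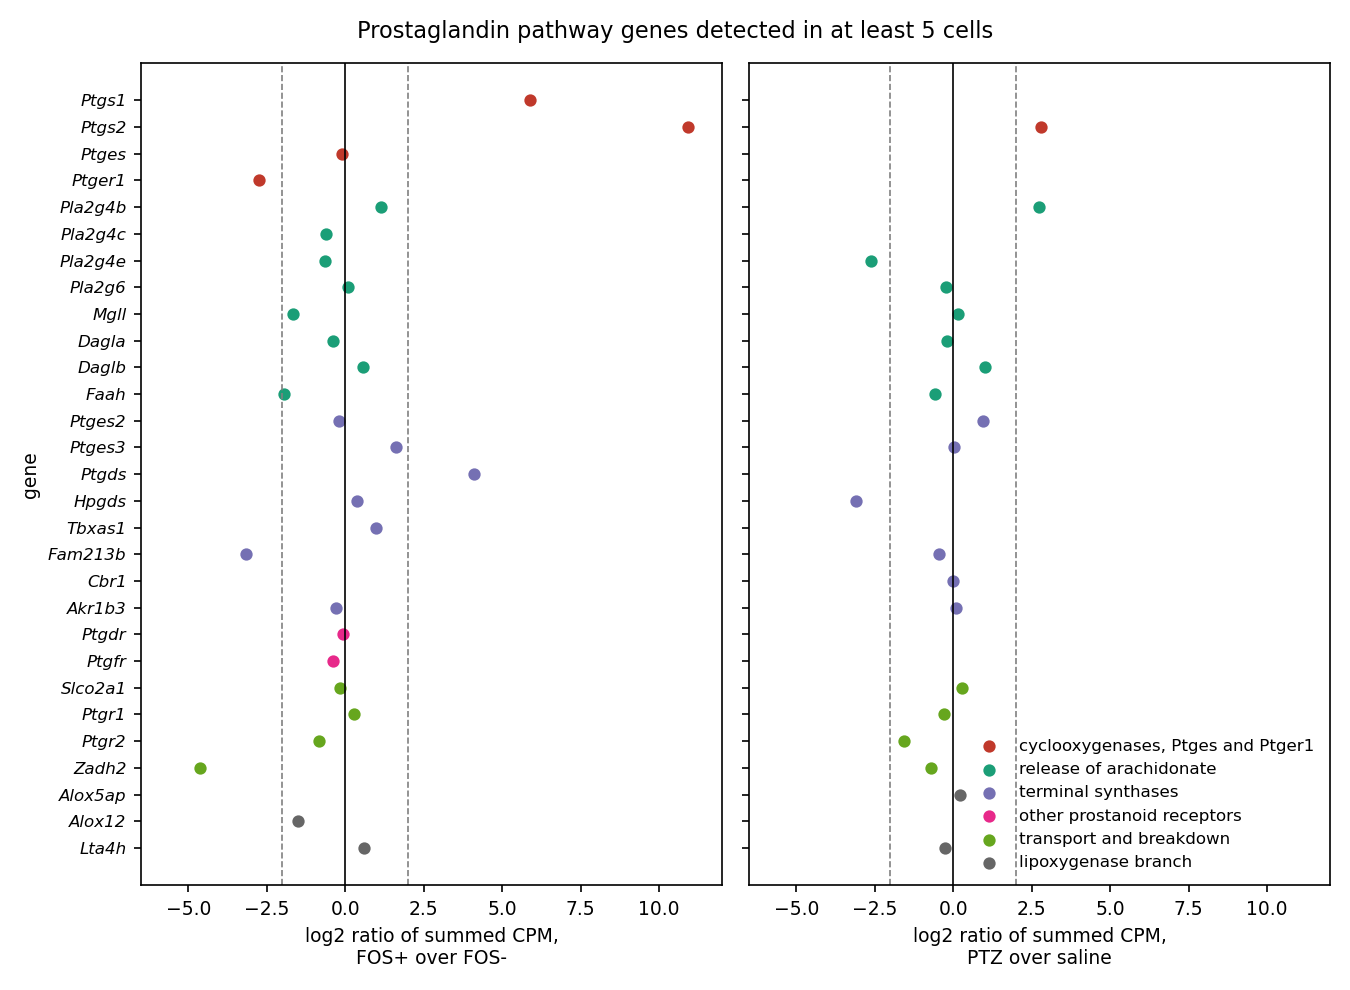
Ratio of summed CPM on a log2 scale (horizontal axes), FOS+ over FOS- nuclei on the left and PTZ over saline whole cells on the right, for genes of the pathway detected in at least 5 cells of the comparison (vertical axis), coloured by role. Dashed lines mark 4 times in either direction. *Ptgs2* is farthest to the right in both panels, at 10.93 and 2.79, and *Ptgs1* on the left rests on 1 nucleus.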

How the data were processed

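The authors deposited 2 tables for each of 3 sets (whole cells, NE nuclei, HC nuclei): expected counts from RSEM, not normalized, and TPM values computed within each cell. Reads had been trimmed and aligned to mm10, and the submitters' processing notes name RSEM and Bowtie 1.0.0. All columns were matched to labels by title. Whole cells and NE nuclei were kept with a total above 50000 counts and with more genes above 1 TPM than the mean minus 2 SD of their table. These limits were not applied to HC nuclei, and all 23 were kept. The spike-in filter of the study was not used here, and the nuclei kept differ in number from the study's.

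Expected counts were summed per group (sums printed rounded) and divided by the summed totals. Each group counts as 1 sample because no animal is named, so no p was computed. Instead, ratios are given with conditional binomial intervals, sums with Poisson intervals and shares with Clopper-Pearson intervals, at 95%. A group at 0 was set to 3 counts. The background counts all genes above 1 TPM in at least 5 cells of a comparison with a ratio of at least 4. A total of 3 counts is between 2.83e-04% and 0.00470% of an NE nucleus and between 5.85e-05% and 0.00446% of a whole cell.

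Genes named are the 8 genes, *Ptgs2os* and *Ptgs2os2*, 5 reference genes (*Arc*, *Fos*, *Egr1*, *Rbfox3*, *Prox1*), genes of the pathway list past 4 times or detected in at least 50% of a group, and the 10 genes with the highest correlation with *Ptgs2*. *Ptges3* and *Hpgds* meet this through the whole cells, and the single microglia markers were named after their values were seen. The genes, lists and rules were chosen with earlier results of these data known. Positions come from GENCODE (GRCm38), and promoters from RefSeq (GRCm38.p6). A word shared with another gene is a run of 50 transcript bases on either strand. Analyses used Python 3.11.15, pandas 2.3.3, SciPy 1.17.1 and NumPy 2.4.6.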

Additional observations from a re-analysis of the deposited data

How the results depend on the processing

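The share of cells with *Ptgs2*, the ratios of the 8 genes and of the pathway genes past 4 times, the counts of genes past 4 times, the genes most like *Ptgs2* and the motif search were recomputed with 1 choice changed at a time. The overlaps with *Arc* and other IEGs, the shares of IEGs in whole cells and the shares of pathway genes were not, and *Ptgs2os* was only by amplification condition. The share of nuclei or cells with *Ptgs2* stayed inside its interval under a limit of 0 TPM, after thinning to 50000 counts, with all cells of the tables, and without FOS+ nucleus 30 or the HC nucleus below the limit on genes, the last 2 chosen after seeing the data. A limit of 5 TPM or of 5 counts did so too in 4 groups, but took FOS- nuclei from 4.88% to 0%, as their nuclei held 1 count each. The FOS+ to FOS- ratio of *Ptgs2* ran from 1118 to 1994 with 1 amplification condition left out. It was 361 and 31.6 at 1:200 with 1 and 10 µM alone, both set by the 3 counts assumed for FOS- nuclei. The PTZ to saline ratio was 8.23 as a mean of CPM over cells, 7.47 as a mean of TPM and 3.92 without the highest cell, the only setting below 4.

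The number of genes at least 4 times higher or lower in FOS+ nuclei became 2416 and 3752 with genes of 1 nucleus or more, 796 and 1396 with those of at least 10, 2947 and 4607 at 2 times, and 639 and 1095 at 8 times. With PTZ the same settings gave 1961 and 1631, 257 and 224, 1708 and 1796, and 278 and 190. Of the 10 genes most like *Ptgs2*, 7 to 9 were shared with other settings over all NE nuclei, and 8, 8 and, by Spearman correlation, 6 over FOS+ nuclei. No paired analysis was possible because the titles number wells, not replicates shared between groups. Of the other 7 genes, 5 gave 53 further ratios, of which 21 moved outside the interval of their main value, and *Ptger3* and *Hpgd* gave none. The *Ptgs2* motif search found 0 matches before the start and 2 with the 50 bases after it. Alternatives for the pathway list were added after seeing the data. Without the cell with the highest CPM of each gene, the genes past 4 times became 2 higher and 2 lower in FOS+ nuclei and 0 higher and 1 lower with PTZ, and *Fam213b* turned to 1.90 in FOS+ nuclei. The limits on shares concern detection, and a gene at 0 can be present below the depth in any share of cells.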

Other observations

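Among the 9 genes listed for the release of arachidonate, *Faah*, *Dagla*, *Mgll* and *Daglb* encode enzymes that make or degrade endocannabinoids. Each of these 4 was detected in at least 50% of the whole cells of both treatments. So were *Ptges3*, *Cbr1* and *Akr1b3* of the terminal synthases. *Lta4h*, listed under the lipoxygenase branch, was detected in 14 of 30 PTZ-treated and 22 of 38 saline-treated cells, with a ratio of 0.838. *Faah*, which degrades anandamide, was detected in 24 of 30 PTZ-treated and 35 of 38 saline-treated cells, and *Dagla*, which makes 2-arachidonoylglycerol, in 26 of 30 and 32 of 38. *Mgll*, which degrades 2-arachidonoylglycerol to arachidonate, was detected in 17 of 30 and 24 of 38, and *Daglb*, a second such synthase, in 19 of each. Their PTZ to saline ratios of summed CPM ran from 0.663 for *Faah* to 2.04 for *Daglb*, so none reached 4 times.

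In NE nuclei the same 4 genes stood lower or higher in FOS+ nuclei without passing 4 times over all nuclei kept. *Faah* had a ratio of 0.261 (interval 0.246 to 0.276) with 27 of 40 against 32 of 41 nuclei. The ratio was 0.213 without the FOS+ nucleus with most counts, which passes 4 times. It was 0.301 without the FOS- nucleus with most, which does not, and 0.246 without both. *Dagla* was detected in 14 of 40 FOS+ and 24 of 41 FOS- nuclei. *Mgll* was detected in 2 of 40 and 9 of 41 nuclei with a ratio of 0.317. A single nucleus held 97.2% of its FOS+ counts, and without it the ratio was 0.00922 (interval 0.00189 to 0.0272). Without the FOS- nucleus with most counts alone the ratio was 0.462. *Daglb* had a ratio of 1.47 with 25 of 40 against 19 of 41 nuclei. The ratio was 1.14 without the FOS+ nucleus with most counts and 3.06 without the FOS- nucleus with most.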
